A study of Mus musculus with 60 samples.

Results

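The comparison set H3K27me3 in cells expressing histone H3R2C against cells expressing H3R26C, as mapped by CUT&RUN, which sequences the DNA that an antibody-guided nuclease cuts free from chromatin. The members were the 6 anti-H3K27me3 samples of the groups H3R2C and H3R26C, 3 labelled replicates each, of 60 samples in the series. All cells were C3H 10T1/2, a line of mouse mesenchymal progenitors, and carried a lentiviral transgene for human H3.1 with HA and FLAG tags, driven by an EF1 promoter and selected with puromycin. In H3R2C the arginine at position 2 of the H3 tail was changed to cysteine, and in H3R26C the arginine at position 26. H3WT cells carried the unmutated transgene and H3R8C cells another mutant, and both are given below as reference. The endogenous H3 genes remained, so every value is from a mixture of transgenic and endogenous histone. The question was which genes and gene families carry the mark in one mutant and not in the other.

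H3K27me3 is laid down by Polycomb repressive complex 2 (PRC2) and is associated with silent genes. In many cell types it forms broad domains over CpG-rich starts of genes for developmental transcription factors that the cell does not use. Such genes include the Hox clusters, which set position along the body axis, and the Sox, Pax, Nkx, POU and forkhead families, which set cell identity. The mark also lies on silenced parts of the X chromosome and, at a lower level, over gene-poor chromatin.

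The deposited lists of replicates 1 and 2 held identical values in each of these groups, so they were counted as 1 list, which left 2 independent lists a mutant. The study's methods call the replicates biologic, and the labels do not say what separated them, so p-values measure the spread between these lists. The H3R2C lists held 23144 and 23168 peaks and covered 130 and 77.0 Mb, and the H3R26C lists held 24598 and 22814 peaks over 120 and 64.2 Mb. In both mutants the list of replicates 1 and 2 was thus the broader one. The lowest summed signal that a listed peak had was 8050 and 4250 in H3R2C and 6300 and 3400 in H3R26C. A block under that level is missing from a list without being free of the mark, and read depth was not used here. Covered bases shared by a pair of lists, as a share of the bases in either, came to 0.482 within H3R2C, 0.431 within H3R26C and 0.298 to 0.411 between the mutants. Mesenchymal progenitor markers carried no peak at any of 10 starts, nor did housekeeping genes at any of 7. A peak in at least 1 list was found at 1 of 5 epithelial, 3 of 5 blood, 1 of 4 endothelial and 2 of 4 neuron markers. Among autosomal protein-coding genes it was found at 3712 of 20807, and beside that share such small sets do not establish a cell type.

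Both mutants kept the mark at many places, and each lacked a listed peak at many where the other had one. Peaks were merged into 34099 regions, of which 18555 were called in both lists of at least 1 mutant (consensus regions) and 7313 in every list. On the autosomes 3450 of 16968 consensus regions (20.3%) were marked only in H3R2C, that is, called in both of its lists and in neither list of H3R26C. Only in H3R26C were 2549 (15%). For signal, the summed coverage of each region was divided by the median over the regions called in every list, so that 1 is the level of a typical shared region. Regions marked in only 1 mutant were mostly weak and short. In their carrier, autosomal H3R2C-only regions had a median signal of 0.401 and H3R26C-only regions 0.418, beside 1.05 for autosomal regions called in every list. Their median lengths were 4.05, 3.65 and 8.85 kb. Regions were built from the H3R2C and H3R26C lists alone, and peaks were counted whole. Values of H3WT and H3R8C can therefore include signal from outside a region. With limma on log2(scaled signal + 0.25) and Benjamini-Hochberg adjustment, 4541 of 18555 regions (24.5%) were higher in H3R2C and 4162 (22.4%) higher in H3R26C at an adjusted p under 0.05. Of these, 3488 and 3212 were regions marked in that mutant alone, where a call largely restates the lack of a peak on the other side. Among the 7313 regions called in every list these were 952 (13%) and 1022 (14%). No region of the wider fit passed an adjusted p of 0.001, although 5197 and 4754 had an unadjusted p under 0.05. With 2 lists against 2, a permutation test of 1 region cannot go below p = 0.333, so the calls rest on a spread shared across regions.

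At gene starts the balance was the other way. A start counted as called when a peak lay within 1 kb of any annotated transcription start of the gene. Of 3712 autosomal protein-coding genes called in at least 1 list, 1259 were called in every list, 360 (9.7%) only in H3R2C and 535 (14.4%) only in H3R26C. Regions marked only in H3R26C lay at a start in 21.5% of cases, against 13.9% of those marked only in H3R2C. Over all autosomal consensus regions the share was 20.1%, and over those called in every list 26.3%. The H3R26C-only share was thus near that of all regions. The rest of the H3R2C-only regions were within genes in 32.9% and between genes in 53.2%, beside 29.2% and 50.7% of all autosomal consensus regions.

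Developmental transcription factors stood on the H3R26C side. Over 18 families with 221 genes, 137 starts were called in at least 1 list and 65 in every list. Marked only in H3R26C were 45 (32.8% of the 137 called starts), and only in H3R2C 2 (1.46%), against 14.4% and 9.7% of autosomal genes. By signal, 72 of the 131 genes with a consensus region were higher in H3R26C and 8 higher in H3R2C, or 55.0% and 6.11%, beside 28.1% and 22.1% of 3026 autosomal genes with a region. Of the 72, 39 were among the 45 marked only in H3R26C and so were not independent of that count. The median log2 difference (H3R2C minus H3R26C) was -1.35 against -0.15 over those autosomal genes. Genes that share a region each entered with its value, here and for the families below, so genes are not independent values. The 45 genes lay in 41 regions, and the 65 called in every list in 51. The median of -1.35 equals the value of the merged Hoxc region, which did not pass the test. These factors made up 8.41% of the starts marked only in H3R26C, 5.004% of those called in every list and 0.556% of those marked only in H3R2C. The count of 45 was 46 to 54 when any 1 of the 4 lists was left out, and 31 when starts were widened to 5 kb. No set test was run, because the families were chosen with earlier results of these data known.

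**Figure D1:**
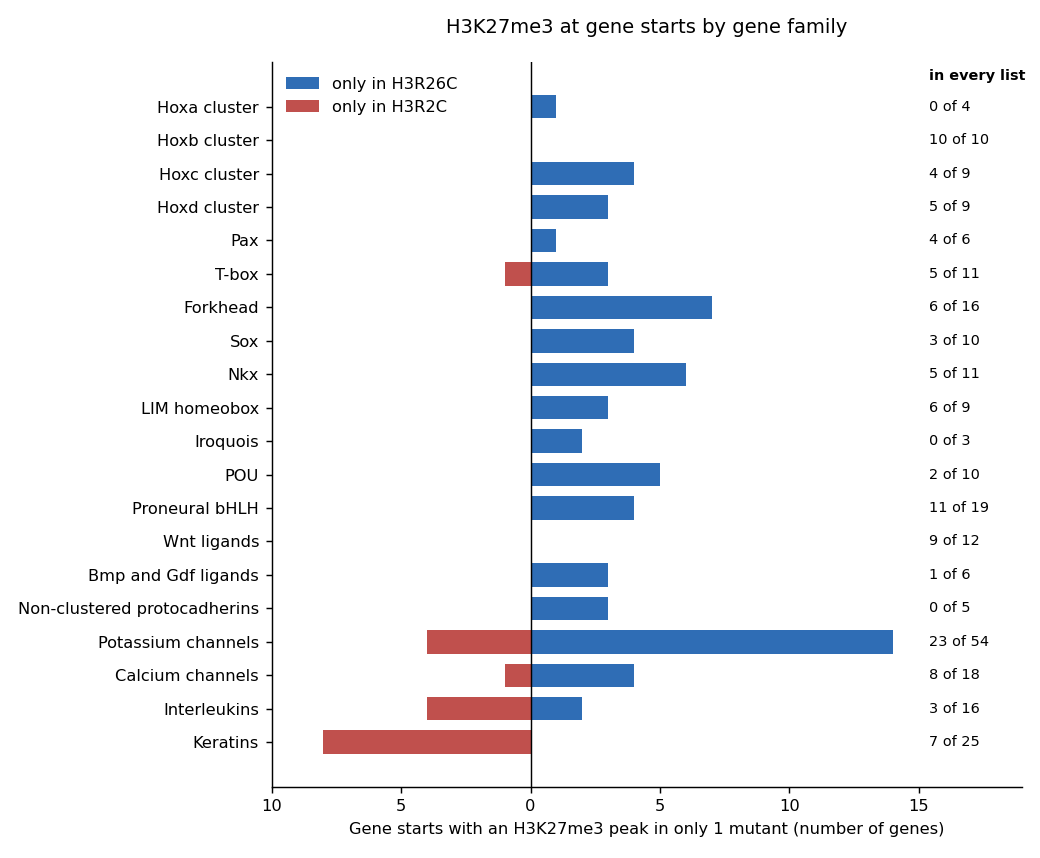
Number of genes in 20 families whose start carried an H3K27me3 peak in both lists of only 1 mutant. Bars to the right are only in H3R26C, bars to the left only in H3R2C, and the figures at the right edge give the genes called in every list among those called in at least 1. Potassium channels have 14 genes to the right and 4 to the left, keratins 0 and 8.

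The Hox clusters differed among themselves. In Hoxb all 10 genes were called in every list, and neither of its regions passed the test. Within Hoxc the posterior genes Hoxc10, Hoxc11, Hoxc12 and Hoxc13 were marked only in H3R26C while Hoxc4, Hoxc5, Hoxc6 and Hoxc8 were called in every list. They share 1 merged region (chr15:102894401-103126900) with a scaled signal of 46.2 and 52.3 in H3R2C and 115 and 137 in H3R26C, and of 117 to 163 in the H3WT and H3R8C lists. The H3R2C values were the lowest and did not overlap the others, but the difference of -1.35 ± 0.53 (SE) did not pass (limma, adjusted p = 0.115). Hoxd13, which patterns the tips of the limbs, was marked only in H3R26C together with Hoxd8 and Hoxd1. Its region held 4.47 and 4.61 in H3R2C and 14.3 and 20.6 in H3R26C, a log2 difference of -1.86 ± 0.24 (SE). In Hoxa only 4 of 11 starts were called in any list, and Hoxa11 was marked only in H3R26C, with 0.471 and 0.613 against 1.44 and 2.06 in its region.

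Factors of the nervous system, heart and gut were among those marked only in H3R26C. Pax6, the regulator of eye development, had no peak in either H3R2C list and a scaled signal of 3.75 and 6.20 in H3R26C, with 2.34 and 2.94 in H3WT. Sim2, a bHLH-PAS factor, likewise had none in H3R2C and 5.01 and 5.88 in H3R26C. No p is given for such genes, since the lack of a peak in H3R2C chose them. Foxa2, which specifies endoderm, held 2.86 and 2.96 in H3R2C and 11.2 and 15.5 in H3R26C over a region of which the start itself had a peak only in H3R26C. Nkx2-5, the cardiac factor, held 0.235 and 0.298 against 0.941 and 1.08. H3WT held 5.52 and 6.08, which can include signal from outside this region. For Foxf1 the start was called only in H3R26C, but the region as a whole did not pass the test, with 5.83 and 8.42 against 6.37 and 6.67 (limma, adjusted p = 0.734). Besides Foxf1, the regions of Hoxd1 and of the posterior Hoxc genes did not pass either, although their starts were called only in H3R26C.

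The reverse pattern was rare among these factors. Tbx10 and Dlx4 alone were marked only in H3R2C. Dlx4, a distal-less homeobox gene, held 1.46 and 1.31 in H3R2C, was unlisted in H3R26C and held 1.79 to 2.94 in the H3WT and H3R8C lists. Tbx10 held 0.559 and 1.01 in H3R2C, again with no peak in H3R26C.

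Among the autosomal regions at gene starts marked only in 1 mutant, those with the largest differences are named here. Their log2 differences depend on the pseudocount of 0.25, since 1 side has no peak, and are not given. No p is given, because the lack of a peak chose these regions. In the H3R26C direction the first was the region of Zic2 and Zic5 (chr14:122465701-122495750), paired zinc finger factors of the neural tube, with 8.81 and 12.1 in H3R26C and 9.70 to 10.2 in H3WT and H3R8C. Next came Isl1 (chr13:116291701-116315400), a LIM factor of motor neurons and heart progenitors, with 6.16 and 9.60, and Sv2c (chr13:96117751-96142300), a synaptic vesicle protein, with 5.57 and 9.47. Sox21 (5.13 and 7.91), Pou3f3 (4.93 and 7.98) and Tbx5 (4.66 and 8.06), a factor of heart and forelimb, followed. H3WT and H3R8C lists had a peak in each of these regions, and at Isl1, Sv2c, Pou3f3 and Tbx5 all their values were below both H3R26C values. The gap was widest at Isl1, where they held 0.866 to 3.0.

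In the H3R2C direction the named regions were mostly not at developmental factors. The region at Ccdc33 and Stra6 (chr9:58060951-58092650) held 6.29 and 6.88 in H3R2C, none in H3R26C and 1.59 to 2.12 in H3WT and H3R8C. Stra6 is the cell-surface receptor that takes up retinol. Mcf2l (chr8:12936901-12960450), a guanine nucleotide exchange factor, held 3.73 and 4.06, and Unc13b (chr4:43209451-43233800), a priming factor for synaptic vesicles, 3.78 and 3.67. Unc13b had no peak in any H3WT or H3R8C list and Mcf2l 1 weak peak of 0.199, so there the mark was listed in H3R2C and hardly elsewhere. Angel1 and Lrrc74a (chr12:86727051-86744850) held 3.55 and 3.98 in H3R2C and 1.90 to 3.94 in H3WT and H3R8C. A pair of regions at Nlrc5, the transactivator of MHC class I genes, held 3.01 and 3.88, and 3.01 and 3.62 (chr8:94419701-94434650 and chr8:94471201-94492350), and 0.365 to 1.303 in the reference lists.

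**Figure D2:**
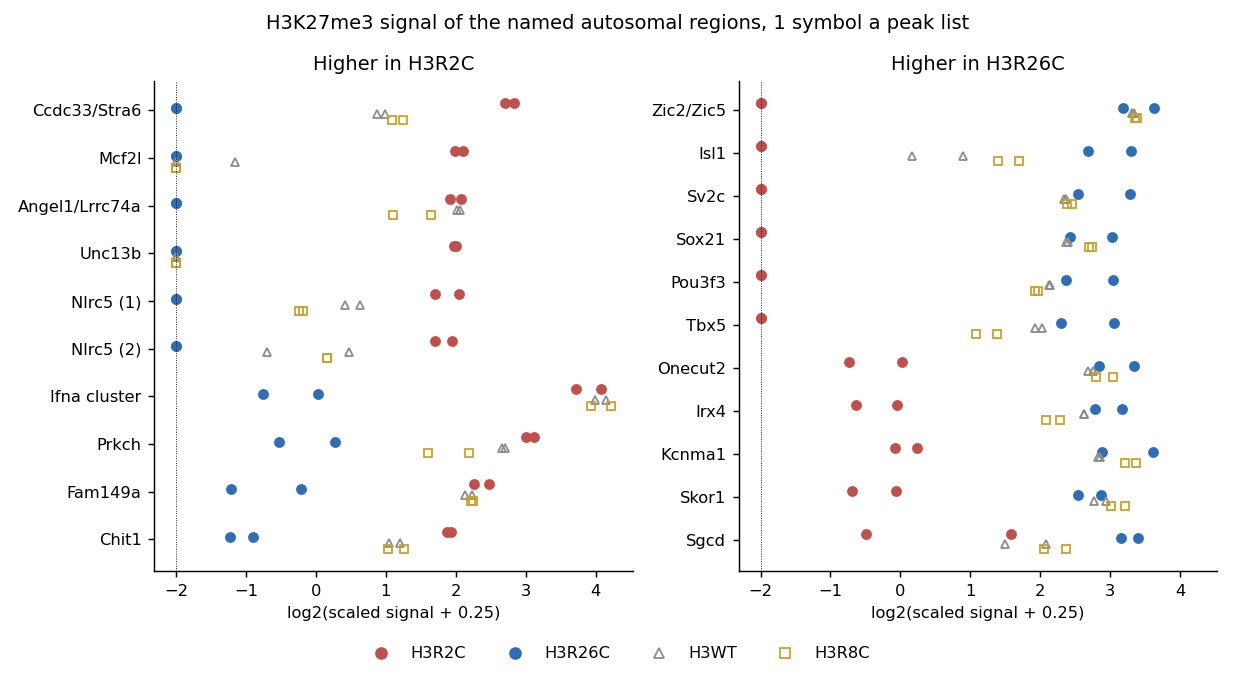
Scaled H3K27me3 signal of the named autosomal regions on a log2 axis after adding 0.25, 1 symbol for each independent list. The dotted line at -2 marks regions without a peak; in the upper 6 rows of each panel both lists of the other mutant sit on it, and H3WT and H3R8C symbols lie close to the carrier at Zic2/Zic5 and on or near the line at Unc13b and Mcf2l.

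The sequences just upstream of some of these starts are given as examples of base composition. The 250 bases before the RefSeq start (GRCm38.p6) are printed 5′ to 3′ on the strand of the gene for starts inside the named regions, with each CpG in capitals. The first pair is from the H3R2C side, the other 3 from the H3R26C side.
Mcf2l (chr8:12947628-12947877, plus strand): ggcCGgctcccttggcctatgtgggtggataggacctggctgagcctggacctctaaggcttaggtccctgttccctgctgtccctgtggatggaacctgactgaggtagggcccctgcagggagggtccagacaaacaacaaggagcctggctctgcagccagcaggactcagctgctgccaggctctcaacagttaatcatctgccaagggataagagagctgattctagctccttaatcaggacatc
Lrrc74a (chr12:86734119-86734368, plus strand): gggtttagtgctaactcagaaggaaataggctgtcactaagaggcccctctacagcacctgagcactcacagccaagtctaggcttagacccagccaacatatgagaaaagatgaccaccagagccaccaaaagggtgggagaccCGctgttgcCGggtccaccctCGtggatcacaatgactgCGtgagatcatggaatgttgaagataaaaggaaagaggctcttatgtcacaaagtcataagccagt
Isl1 (chr13:116309689-116309938, minus strand): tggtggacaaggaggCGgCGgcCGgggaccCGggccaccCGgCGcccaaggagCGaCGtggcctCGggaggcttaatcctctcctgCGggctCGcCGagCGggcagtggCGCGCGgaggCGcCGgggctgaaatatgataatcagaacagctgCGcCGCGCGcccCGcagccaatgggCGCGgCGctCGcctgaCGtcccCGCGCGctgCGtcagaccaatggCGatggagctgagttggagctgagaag
Sv2c (chr13:96132578-96132827, minus strand): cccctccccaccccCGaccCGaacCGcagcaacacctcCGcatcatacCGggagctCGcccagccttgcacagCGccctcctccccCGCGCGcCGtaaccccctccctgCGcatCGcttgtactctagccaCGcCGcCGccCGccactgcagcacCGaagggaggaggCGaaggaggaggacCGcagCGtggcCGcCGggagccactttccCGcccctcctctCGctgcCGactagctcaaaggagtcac
Pou3f3 (chr1:42695518-42695767, plus strand): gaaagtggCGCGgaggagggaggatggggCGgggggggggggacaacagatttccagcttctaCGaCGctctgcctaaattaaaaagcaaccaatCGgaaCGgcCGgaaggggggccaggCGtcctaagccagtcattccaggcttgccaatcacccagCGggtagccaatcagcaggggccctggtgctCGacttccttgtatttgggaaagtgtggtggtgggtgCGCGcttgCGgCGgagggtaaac

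The Mcf2l and Lrrc74a windows held 1 and 4 CpG sites, and those of Isl1, Sv2c and Pou3f3 held 33, 26 and 15. Over all autosomal starts the sides differed in the same direction. For genes with a RefSeq sequence, the median count of CpG sites in these 250 bases was 5 over 266 genes marked only in H3R2C and 15 over 407 marked only in H3R26C, and 10 or more sites were present in 30.8% and 66.6%. All 15687 matched autosomal genes had a median of 12, and 933 genes called in every list had 9. The CpG ratio (observed over expected, in the 1 kb centred on the start) had a median of 0.270 in the H3R2C-only set, 0.641 in the H3R26C-only set and 0.437 over all called starts. A ratio of 0.6 or more was found in 16.9% of the H3R2C-only and 57.9% of the H3R26C-only starts. Angel1, at the same H3R2C region as Lrrc74a, went the other way with a ratio of 0.722. These are descriptions without a test, since neighbouring starts share regions.

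**Figure D3:**
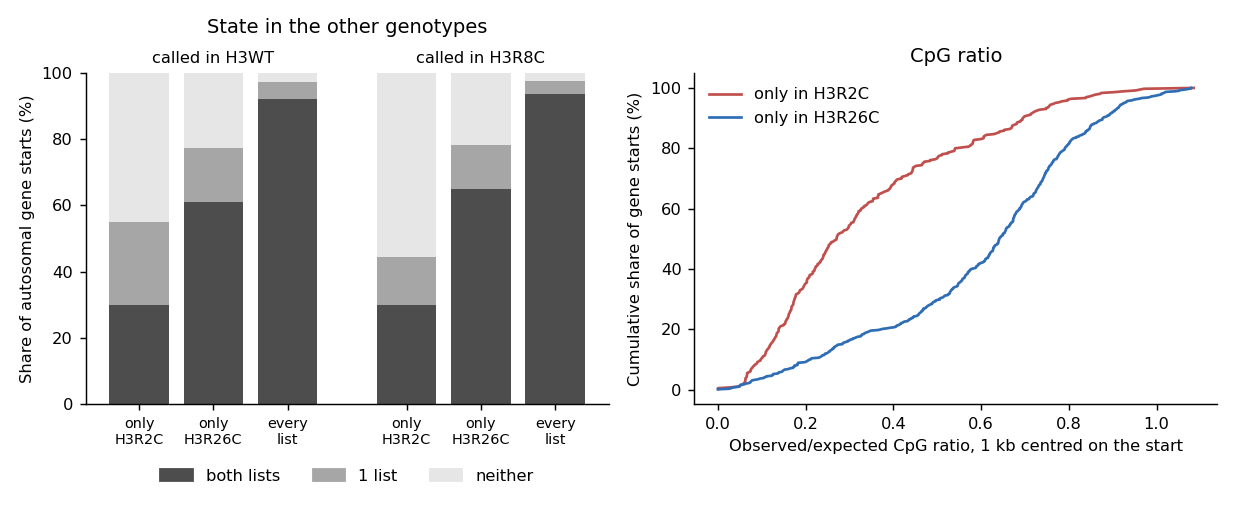
Left, the share of autosomal gene starts called in both, 1 or neither list of H3WT and of H3R8C, for starts marked only in H3R2C (360), only in H3R26C (535) or in every list (1259). Right, the cumulative share of starts by CpG ratio, where the H3R26C-only curve (median 0.641) lies to the right of the H3R2C-only curve (median 0.270).

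Set beside the other genotypes, the sides also differed. Of the 535 starts marked only in H3R26C, 61.1% were called in both H3WT lists and 64.9% in both H3R8C lists. These were near the 56.7% and 59.2% over all 3712 called autosomal starts. Of the 360 marked only in H3R2C, 30.0% were called in both H3WT lists and 45.0% in neither. Over all called autosomal starts 28.8% were in neither H3WT list, so the H3R2C-only set departed more. Among the 45 developmental factors 37 were called in both H3WT lists and 40 in both H3R8C lists. Only Neurod6, Sox6 and Tbr1 had no call in H3WT, and of these Sox6 and Tbr1 were called in both H3R8C lists. Read from the reference side, 1901 autosomal starts were called in all 4 H3WT and H3R8C lists, of which 281 (14.8%) were marked only in H3R26C and 76 (4.00%) only in H3R2C. For the 17593 starts called in none of those lists the order was reversed, with 66 (0.375%) only in H3R26C and 135 (0.767%) only in H3R2C.

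Over all autosomal regions, at starts or not, 56.2% of those marked only in H3R2C and 40.6% of those only in H3R26C were called in neither H3WT list. Among all autosomal consensus regions the share was 25.7%. The HA tag of the transgenic histone overlapped them unequally. Peaks of the 4 anti-HA lists of these mutants overlapped 22.1% to 31.0% of the H3R2C-only regions and 2.63% to 6.59% of the H3R26C-only regions, beside 13.3% to 24.7% of all autosomal consensus regions. The part of the transgenic histone in the difference was not tested.

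Regions called in every list have a listed peak on both sides, though any block under the level of a list is still missing from its sum. Some starts in the regions named next were already counted as marked only in H3R2C (such as Ifna1, Fam149a and Chit1) or only in H3R26C (Onecut2, Irx4 and Kcnma1). Those regions are not apart from the counts at starts. The named regions of this kind passed the test both in the wider fit, whose adjusted p is given, and among the regions called in every list. The alpha interferon cluster with Ifna1, Ifna4, Ifna5, Ifna6, Ifna7 and Ifna11 (chr4:88813201-88866750) held 12.9 and 16.6 in H3R2C against 0.775 and 0.344 in H3R26C, a log2 difference of 4.26 ± 0.33 (adjusted p = 0.00304). H3WT and H3R8C lists held 15.0 to 18.4, so the H3R26C lists stood apart from every other list. Prkch, a protein kinase C (7.75 and 8.43 against 0.961 and 0.444), and Fam149a (4.54 and 5.30 against 0.180 and 0.615) were likewise near the H3R2C level in H3WT, which held 6.05 and 6.27 at Prkch and 4.43 and 4.12 at Fam149a. Chit1, a chitinase of macrophages (3.41 and 3.56 against 0.176 and 0.285), was highest in H3R2C, with H3WT in between. In the wider fit some of these calls were lost when 1 H3R2C list was left out. Without the list of replicates 1 and 2 the adjusted p by limma was 0.0935 for Prkch, 0.0877 for Fam149a and 0.0852 for Chit1, and without replicate 3 it was 0.0851 for Prkch, 0.118 for Fam149a and 0.0519 for the interferon cluster. The log2 differences stayed large, at 2.44 and 3.02 for Prkch, 3.29 and 3.13 for Fam149a, 2.99 for Chit1 and 4.23 for the interferon cluster. On maximum signal, the height of the tallest peak, the difference was 0.97 for the interferon cluster (limma, adjusted p = 0.0658) and 0.88 for Chit1 (adjusted p = 0.136), and neither passed.

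In the other direction, Onecut2, a CUT homeobox factor of liver and neurons, held 0.770 and 0.349 in H3R2C and 6.93 and 9.91 in H3R26C, a log2 difference of -3.45 ± 0.35 (limma, adjusted p = 0.0042). Irx4, an Iroquois factor of the heart ventricle (chr13:73256451-73278500), held 0.716 and 0.392 against 6.65 and 8.76. Kcnma1, a calcium-gated potassium channel (chr14:23991651-24019000), held 0.697 and 0.930 against 7.14 and 11.98. Skor1, a corepressor of spinal neurons (chr9:63136351-63152750), held 0.707 and 0.368 against 5.55 and 7.03. At these 4 genes the H3WT and H3R8C lists held 3.97 to 10.1, all above both H3R2C values. Sgcd, delta-sarcoglycan of muscle (chr11:47543451-47600050), held 2.76 and 0.462 against 8.65 and 10.3, and its H3R2C lists differed most. Its log2 difference was -2.73 ± 0.75 (limma, adjusted p = 0.0486), and it did not pass under 10 of the alternatives, among them maximum signal (-0.36, adjusted p = 0.327) and leaving out H3R2C replicate 3 (adjusted p = 0.0582) or H3R26C replicates 1 and 2 (0.244) or 3 (0.292). Onecut2 no longer passed by limma without the H3R26C list of replicates 1 and 2 (adjusted p = 0.0736) or replicate 3 (0.0603), Skor1 without H3R26C replicate 3 (0.0515), and Kcnma1 without H3R2C replicates 1 and 2 (0.062) or 3 (0.0678).

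Signalling genes were not of 1 kind. Wnt ligands had 9 of 12 called starts in every list and none marked in only 1 mutant, and 1 was higher in H3R2C by signal. Both called hedgehog ligands, Shh and Ihh, were in every list, and Shh held 2.51 and 3.16 in H3R2C against 6.43 and 8.64 in H3R26C (limma, adjusted p = 0.0126). Of 6 called Bmp and Gdf starts, Bmp3, Bmp7 and Gdf10 (50%, beside 14.4% of autosomal genes) were marked only in H3R26C. None was marked only in H3R2C. Bmp7, a ligand active in kidney and bone, had no peak in H3R2C and 0.857 and 2.67 in H3R26C. Fgf8, a ligand of limb and brain patterning, was marked only in H3R26C with 1.08 and 1.63, as was Fgf12 with 0.933 and 1.4. Fgf23, a hormone of phosphate balance, was marked only in H3R2C. These were 22.2% and 11.1% of 9 called Fgf starts, beside 14.4% and 9.7% of autosomal genes. Dkk1, a secreted Wnt antagonist, was marked only in H3R26C with 0.466 and 0.807. The chemokine Cxcl14 had none in H3R2C and 2.84 and 4.38 in H3R26C. Of 16 called interleukin starts, Il5, Il18, Il21 and Il31 (25%, beside 9.7% of autosomal genes) were marked only in H3R2C and Il17d and Il25 (12.5%, beside 14.4%) only in H3R26C.

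Channel, receptor and adhesion genes varied by family. Potassium channel subunits had 14 starts marked only in H3R26C (25.9% of the 54 called) and 4 only in H3R2C (7.41%), beside 14.4% and 9.7% of autosomal genes, and 23 were in every list. By signal 20 of 50 were higher in H3R26C and 10 higher in H3R2C, that is 40% and 20% beside 28.1% and 22.1% of autosomal genes. Kcna1 and Kcna5, voltage-gated channels that lie side by side, had no peak in H3R2C, and Kcna1 held 2.39 and 2.03 in H3R26C. Kcnip1, a channel-interacting protein, had none in H3R2C, H3WT or H3R8C and 1.79 and 3.804 in H3R26C. Calcium channels had 4 starts only in H3R26C (Cacna1e, Cacna2d3, Cacng4 and Cacng7) and Cacna1s only in H3R2C, of 18 called. These were 22.2% and 5.56%, beside 14.4% and 9.7% of autosomal genes. Glutamate, nicotinic and amine receptors had 1 of 14, 1 of 10 and 3 of 16 called starts only in H3R26C and none only in H3R2C. The H3R26C shares were 7.14%, 10% and 18.75%, near or under the 14.4% of autosomal genes. The non-clustered protocadherins Pcdh8, Pcdh10 and Pcdh20, adhesion proteins of neurons, were marked only in H3R26C (60% of only 5 called starts). Pcdh8 held 0.248 and 0.298 against 2.53 and 3.31. Epha3, Epha4 and Epha10, receptors of axon guidance, were only in H3R26C and their ligand gene Efna3 only in H3R2C. These were 50% and 16.7% of only 6 called ephrin and Eph starts, beside 14.4% and 9.7% of autosomal genes.

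Among the listed families, keratins had the most starts marked only in H3R2C. Krt75, Krt78, Krt79, Krt81, Krt82, Krt83, Krt84 and Krt90, structural proteins of hair and epithelium, were marked only in H3R2C (32% of 25 called starts) and none only in H3R26C. By signal 12 of 21 (57.1%, beside 22.1% of autosomal genes) were higher in H3R2C, the same 8 among them, and none in H3R26C. Their median log2 difference was 0.98, near the 0.93 over all consensus regions of chromosome 15. It was 0.97 with chromosome medians over regions called in every list set to 0, and 0.35 on maximum signal. All 8 lie in the keratin cluster of chromosome 15, where 47.1% of 17 called starts of the listed keratins and 19.3% of all 207 called starts were marked only in H3R2C. Krt6a, of the same cluster and outside the list because of the letter in its name, was also marked only in H3R2C. The region of Krt75, Krt82 and Krt90 (chr15:101544051-101577000) held 5.05 and 7.19 in H3R2C, only 0.192 in 1 H3R26C list, and 0.725 to 2.45 in the reference lists. Next to them Krt1 and Krt77 did not separate, with 8.73 and 10.6 against 10.0 and 12.4 (limma, adjusted p = 0.463). Krt84 had no peak in H3R26C, H3WT or H3R8C and 1.06 and 1.22 in H3R2C.

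Lineage genes of the mesenchyme gave small numbers, with 3 bone, 5 cartilage and 3 fat starts called in at least 1 list. The bone genes Alpl, the alkaline phosphatase of osteoblasts, and Sp7, their transcription factor, were marked only in H3R2C and had no peak in H3R26C, H3WT or H3R8C. Alpl held 0.785 and 0.766 and Sp7 0.456 and 0.527, levels under that of a typical shared region. Msx2, a homeobox gene also counted with bone, was in every list and held 0.290 and 0.237 in H3R2C against 2.52 and 3.68 in H3R26C (limma, adjusted p = 0.00377). The cartilage genes Sox6 and Col9a1 had starts marked only in H3R26C. For Sox6 the H3R26C values were 1.16 and 2.20 with none in H3R2C or H3WT, whereas the Col9a1 region did not pass by limma (adjusted p = 0.112). Prdm16, the brown-fat regulator, was marked only in H3R26C with 0.484 and 0.830, and the muscle regulator Myod1 was in every list with 2.50 and 3.27 against 2.37 and 2.85. PRC2 subunits and partners had no called start among 13.

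The longest regions marked in 1 mutant alone lay both at starts and between genes. For H3R2C these were the Ccdc33 and Stra6 region of 31.7 kb and a pair of intergenic regions of 31.15 and 29.7 kb (chr6:4331901-4363050 and chr6:4552401-4582100). The imprinted gene Casd1 lies in the same part of that chromosome. Its start was marked only in H3R2C, at 0.576 and 0.728. The intergenic pair held 5.91 and 6.52, and 6.66 and 8.52, in H3R2C, with 6.24 to 9.44 in H3WT and H3R8C, so H3R26C was the mutant that differed from the rest. For H3R26C the longest were Myh13, a myosin heavy chain (31.15 kb), the Zic2 and Zic5 region (30.05 kb) and Kcna5 (29.35 kb). Myh13 held 4.14 and 4.79 in H3R26C and 2.58 to 4.39 in the reference lists, while Kcna5 (4.16 and 3.60) had 1 weak peak of 0.197 in them. Elsewhere the imprinted genes Igf2, Gnas and Sfmbt2 were marked only in H3R26C (18.75% of 16 called imprinted starts, beside 14.4% of autosomal genes).

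Whole chromosomes leaned to 1 side. On chromosome 13, 41 regions were marked only in H3R2C and 235 only in H3R26C, with a median log2 difference of -0.96, and on chromosome 15 the counts were 282 and 55 with a median of 0.93. Chromosomes 1 (184 and 304) and 16 (73 and 104) leaned to H3R26C, and chromosome 2 (352 and 130) to H3R2C. A change in the copy number of a chromosome and a change of the mark cannot be told apart here. Outside chromosomes 13 and X, 42 of 128 called developmental factors (32.8%) were marked only in H3R26C and 2 (1.56%) only in H3R2C. Of the 3569 called autosomal starts outside chromosome 13 these were 13.9% and 10.0%. Each chromosome's median over its regions called in every list was also set to 0, which was -0.52 on chromosome 13 and 0.33 on chromosome 15. The median log2 difference over all 131 factors with a region was then -1.57. That step does not set the medians over all consensus regions given above to 0.

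The X chromosome stood on the H3R26C side. Of 1587 consensus regions there 705 (44.4%) were marked only in H3R26C and 57 (3.59%) only in H3R2C, and of 282 called starts 76 (27%) and 5 (1.77%). X peaks made up 4.93% and 5.73% of the H3R2C lists, 12.4% and 11.2% of the H3R26C lists and 12.5% to 17.96% of the H3WT and H3R8C lists, so the H3R2C lists were the ones apart. Aifm1, a mitochondrial flavoprotein (X, 48477001 to 48496350), had no peak in H3R2C and 2.83 and 1.94 in H3R26C, with 2.60 to 3.54 in the reference lists. Arhgap36 (X, 49483701 to 49502600), an antagonist of protein kinase A, had none in H3R2C and 2.30 and 2.39 in H3R26C. Against that trend, adjoining regions at Cacna1f, a retinal calcium channel, and Syp, synaptophysin (X, 7621451 to 7630550 and 7631151 to 7640550), held 1.05 and 1.23, and 0.440 and 1.10, in H3R2C and none in H3R26C. No p is given for these X regions, since the lack of a peak in 1 mutant chose them.

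**Figure D4:**
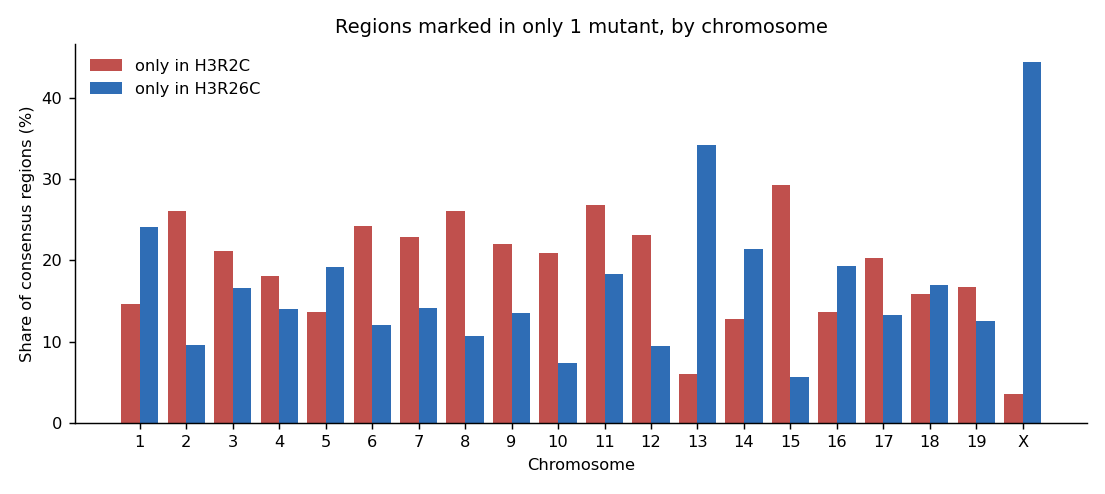
Share of the consensus regions of each chromosome that were marked only in H3R2C or only in H3R26C, in percent. Chromosome 13 (5.97% and 34.2%) and X (3.59% and 44.4%) lean to H3R26C, chromosome 15 (29.2% and 5.70%) to H3R2C.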

How the data were processed

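Peak lists of anti-H3K27me3 CUT&RUN of H3R2C and H3R26C cells were compared, with those of H3WT and H3R8C and the anti-HA lists of both mutants as reference. Other samples were not analysed here. By their methods, the authors mapped reads to mm10 with Rsubread and called peaks for each labelled sample with SEACR 1.3 (stringent, normalised, numeric threshold 0.01). The deposited columns give the total and the maximum signal of each peak, which is coverage that the authors did not scale to a common depth. Such a threshold keeps a top share of blocks, so a list's level depends on its library. The submitters' processing notes also name DESeq2, which the study used on read counts; here the signal of called peaks was tested.

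Groups and replicate numbers came from the sample titles. Lists of replicates 1 and 2 held identical values in each group used, although the study's methods give these replicates different read totals, and were counted once. Peaks that overlapped or touched were merged, and a region was called where a peak overlapped it by at least 1 bp. Region signal was the sum of the total signal of overlapping peaks, or 0, divided by its median over the 7313 regions called in every list. Each overlapping peak was counted whole, also where an H3WT or H3R8C peak reached past the region. limma 3.58.1 (lmFit, eBayes with trend, R 4.3.3) was fitted to log2(scaled signal + 0.25) of the 4 lists, with Benjamini-Hochberg adjustment over all regions and a threshold of 0.05. In the fit of regions called in every list the estimated prior degrees of freedom were infinite, so those p-values replace each region's own spread by the trend and are not printed. The fit was also run on simulated data modelled on the regions called in every list, so regions without a peak were not covered. The outcome of that run is not given here. Gene starts came from GENCODE M21 (GRCm38, the build of mm10), upstream sequences from RefSeq (GRCm38.p6).

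The regions, genes and 61 gene lists were chosen with earlier results of these data known. Named genes followed a rule: per direction, the 6 autosomal regions at starts marked in only 1 mutant with the largest difference, the 5 largest called in every list, 2 on X, the 3 longest, and list members marked in only 1 mutant. Others (Krt1, Krt6a, Foxf1's region, Shh, Msx2, Myod1) were named from the lists after their values were seen. Alternatives changed the peaks, merging, replicates, scaling, pseudocount, filter, fit, overlap and start window. Read totals were not used, so no counting interval is given. Results for a few genes that met the rule are not reported here.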

Additional observations from a re-analysis of the deposited data

How the results depend on the processing

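Leaving out 1 list moved many counts, since a region then needs fewer lists to be called. Regions higher in H3R2C were 2471 to 8502 in the wider fit and 457 to 980 among regions called in every list, and those higher in H3R26C 1504 to 8999 and 507 to 1042. In this order the values came without H3R2C replicates 1-2 (7104 and 1785), without its replicate 3 (8502 and 1504), without H3R26C replicates 1-2 (4171 and 7099) and without its replicate 3 (2471 and 8999). Autosomal regions marked only in H3R2C were 3742 to 8246 and only in H3R26C 2866 to 6719. Autosomal starts were 390 to 723 and 583 to 855, and developmental factors 2 to 5 and 46 to 54.

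With the upper 50% of peaks the wider fit gave 2543 and 2393 regions (higher in H3R2C, then H3R26C), regions called in every list 547 and 547, autosomal regions marked in only 1 mutant 2046 and 1635, and developmental factors marked only in H3R2C 4. A filter on low signal gave 2271 and 2146 in the wider fit. An adjusted p under 0.001 left 0 and 0 in the wider fit, and 419 and 432 among regions called in every list. There, signal as deposited gave 1 and 0 (limma; 156 and 52 at an unadjusted p under 0.05) and maximum signal 305 and 357, where the cause was not tested. Signal as deposited also moved the median over all consensus regions from 0.04 to 0.26 on the log2 scale. Counting all 3 labelled replicates gave 1595 and 1615 there, 8648 and 7172 autosomal regions, 771 and 926 autosomal starts and 5 developmental factors only in H3R2C, since a copy counts as a replicate. A 5 kb window gave 584 autosomal starts only in H3R2C and 5 developmental factors, and the 5′ end of the gene 4 such factors. The median log2 difference kept its sign under every scaling and pseudocount, at -1.57 to -0.60 for developmental factors and 0.35 to 1.25 for keratins. Robust eBayes, chosen after seeing the data, as were the alternatives for developmental factors and keratins, gave 4486 and 4109.

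A replicate block gave 5313 and 4884 regions in the wider fit and 922 and 1017 among regions called in every list. The deviations of same-numbered lists correlated at -0.01 and 0.07 over regions, from 2 pairs, so the block marks a number and no known pairing. No count moved by over 1.5 times with it. Of 536 values of 30 named regions under 18 alternatives, 509 kept direction and call, 27 lost the call in 10 regions and 0 reversed. With maximum signal the calls lost were Sgcd (-0.36), the interferon cluster (0.97) and Chit1 (0.88). Read depth, which would bound unlisted blocks, was not used here.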

Other observations

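Regions marked only in 1 mutant also lay in runs along chromosomes, without a consensus region of another kind between them. On the H3R2C side the longest run held 21 regions on chromosome 9 (56819851 to 58746100), with starts of Ccdc33, Stra6, Rec114 and Cyp11a1, the enzyme that begins steroid synthesis. A further run of 17 on chromosome 8 (93743601 to 94931200) held Nlrc5, Pllp, Adgrg5 and Slc12a3. On the H3R26C side 24 regions on chromosome 11 (67113451 to 67902200) held Myh13, Glp2r, Dhrs7c and Gsg1l2, and 24 more (33552301 to 34105900) held Kcnip1. Runs of 19 on chromosome 7 with Sox6, of 15 on chromosome 1 with Lmx1a and of 14 on chromosome 5 with Tbx5 were also marked only in H3R26C. On X a run of 19 regions (37595251 to 38093650) covered the reproductive homeobox genes Rhox2g, Rhox3g, Rhox3h, Rhox4f, Rhox4g, Rhox6, Rhox7a and Rhox7b.

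Olfactory receptors, a family of over 1000 genes that is silent outside the nose, had 53 of 126 called starts in every list, 3 only in H3R2C and 12 only in H3R26C. The last shares, 2.38% and 9.52%, were under the 9.7% and 14.4% of autosomal genes. Vomeronasal receptors had 9 of 25 in every list and none in only 1 mutant. Collagens had Col15a1 only in H3R2C and Col9a1 and Col19a1 only in H3R26C. The endothelial marker Kdr was marked only in H3R26C (0.678 and 0.637, no peak in H3R2C or H3WT, and 0.263 and 0.25 in H3R8C).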
